A study of Bos taurus with 6 samples.

Results

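The miRNAs described here are the 69 cattle miRNAs whose miRBase number comes after that of miR-2904, such as miR-3600, miR-6119 and miR-7863, out of 8800 sequences in the miRNA count data of intramuscular fat (IMF). They were chosen by name alone, as every entry bta-miR- with such a higher number and any letter or arm suffix, except miR-3604. The 8800 sequences hold 793 known bovine miRNAs, and the others are predicted sequences or matches to miRNAs of other species. The lowest-numbered member was miR-2917, counted 1 and 3 times in the steer libraries and 0 and 1 times in the bull libraries. Just outside the rule, miR-2904 was counted 6800 and 6058 times in steers and 8081 and 12322 times in bulls.

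The study compared IMF, the fat laid down within muscle that gives beef its marbling, between steers and bulls of Chinese Qinchuan cattle. All animals were 24 months old, were weaned at 3 months and received the same feeding scheme, and the steers had undergone surgical castration when they were 6 months old. The tissue was cut from the sternomandibularis muscle in the neck. There were 2 small RNA libraries per group, referred to as steers 1, steers 2, bulls 1 and bulls 2, and 1 mRNA library per group. The series' design text and the paper give pools of 3 animals behind each small RNA library and 6 behind each mRNA library, whereas the sample labels give 1 and 3 heads, and the cattle were sons of a single sire. The p-values therefore measure the spread between libraries, which is not a spread between animals if the libraries are pools. For single members the fit shares that spread largely across all sequences tested. Fewer cells of a type and less RNA per cell cannot be told apart in such bulk samples.

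MicroRNAs are short RNAs cut from hairpin precursors by the enzymes DROSHA and DICER1 and loaded into an Argonaute protein, where they lower the stability and translation of matching mRNAs. Bases 2 to 8 from the 5′ end, the seed, do most of the pairing with a target. miRBase gives numbers in order of submission, so a high number marks a late entry and not a family. A letter marks a related sequence, and 5p and 3p name the arms of a hairpin.

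The mature sequences, taken from the study's list of known bovine miRNAs and written with T in place of U, were at hand for 67 of the 69 members and not for miR-3602 and miR-6122-5p. The members called different between steers and bulls are shown first, with the seed in capitals.
bta-miR-6526: tCCTGTGCctcgaatgggtatg
bta-miR-7863: aTGGACTGtcacctgaggagc
bta-miR-3601: tCTCGTGAcatgatgatccccga
bta-miR-3613a: tGTTGTACttttttttttgttc

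Predicted sequences, matches to miRNAs of other species and hairpin arms missing from the study's list were not searched for shared runs. Members among the 12 most abundant that share no run of 15 bases with another known bovine miRNA are shown next. miR-6119-3p is added as the other arm of miR-6119, and the seed is again in capitals.
bta-miR-6119-5p: aGAGGTAAaaaattgatttgact
bta-miR-6119-3p: gCAAATCAttttttactctccaa
bta-miR-3120: cACAGCAAgtgtagacaggca
bta-miR-3431: cCTCAGTCagccttgtggatgt
bta-miR-6120-3p: tATGTTGGacaacgtggatagc
bta-miR-4449: cGTCCCGGggccgctcgaggca
bta-miR-4286: aCCCCACTcctggtacc

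The 67 sequences held 67 different seeds, so no member shared a seed with another. Of these, 5 shared a seed with a known miRNA outside the group, for example miR-7865 with miR-149-3p and miR-7859 with miR-2285a. Members were 16 to 23 bases long with a median of 21 bases, and the median of the other known bovine miRNAs was 22. The median GC content was 52.2% in members and 47.8% in the other known miRNAs, and miR-4449 reached 81.8%. In miR-6529a and miR-6529b the letter names a pair of opposite strands, as it does in miR-3613a and miR-3613b and in miR-6523a and miR-6523b.

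In all, 14 members shared a run of at least 15 bases with another known bovine miRNA, 11 of them as the reverse complement and 3 on the same strand. The mirrored pairs are shown because each member would be read from the strand opposite its partner, with the shared run in capitals on both.
bta-miR-3600: aCAGTTCTTCAACTGGCAGCTT
bta-miR-22-3p: AAGCTGCCAGTTGAAGAACTG
bta-miR-3596: AACCACACAACCTACTACCTCA
bta-let-7b: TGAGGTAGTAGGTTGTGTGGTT
bta-miR-2957: CCAAGTTCTGTCATGCACTGA
bta-miR-152: TCAGTGCATGACAGAACTTGGg
bta-miR-3578: GAATCCACCACGAACAACTTC
bta-miR-382: GAAGTTGTTCGTGGTGGATTCg
bta-miR-3601: tCTCGTGACATGATGATCCCCGA
bta-miR-542-5p: TCGGGGATCATCATGTCACGAG
bta-miR-6529a: gAGAGATCAGAGGCGCAGAGT
bta-miR-6529b: ACTCTGCGCCTCTGATCTCT
bta-miR-3613a: tGTTGTACTTTTTTTTTTGTTC
bta-miR-3613b: GAACAAAAAAAAAAGTACAAC
bta-miR-6523a: tCTGGGGTAACTTTGAGCAGgg
bta-miR-6523b: CTGCTCAAAGTTACCCCAG

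On the same strand, miR-3432a and miR-3432b shared 19 bases and differed at the 5′ end, which changes the seed, and miR-6519 shared its first 15 bases with miR-503-5p, a relative of miR-16.
bta-miR-3432a: tgCGGGATCTTTAGTTGTGGTg
bta-miR-3432b: ttCGGGATCTTTAGTTGTGGT
bta-miR-6519: TAGCAGCGGGAACAGagaaa
bta-miR-503-5p: TAGCAGCGGGAACAGtactg

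Library totals ranged from 6556511 to 10452582 counts, and known bovine miRNAs made up 86.2% to 93.2% of them. Libraries of a group differed by far more than sampling noise, and none was a copy of another. The adipocyte mRNAs ADIPOQ, PLIN1, FABP4, LEP and CIDEC all had at least 1153 counts in both mRNA pools. Their log2 fold changes, steers against bulls and without a test, were -0.68, -0.38, -1.06, 0.02 and 0.28 in that order. Levels of 6 muscle miRNAs were added up in CPM (counts scaled to a common effective library size). They summed to 2208 and 3377 CPM for steers and to 5842 and 5394 CPM for bulls, and 2 were called lower in steers. Most of each sum was miR-133a, with 2020 and 3126 CPM for steers and 5345 and 4986 CPM for bulls. No other muscle miRNA exceeded 235 CPM in any library. Whether muscle was part of the samples was not tested. The 6 immune miRNAs summed to 1038 and 814 CPM in steers and to 2821 and 1435 in bulls with 2 called lower, and the 6 epithelial miRNAs summed to 1.03 and 1.05 CPM in steers and to 4.76 and 3.86 in bulls with 1, miR-141, called lower. Of the 3 erythroid miRNAs miR-486 was called higher and miR-451 lower. The third, miR-144, was not called, with a log2 fold change of -1.94 (adjusted p = 0.0803). Of the 5 stromal ones miR-143 and miR-10b were called higher. The other stromal miRNAs were not called, with log2 fold changes of 0.64 for miR-145, -0.23 for miR-199a-5p and -0.997 for miR-199a-3p. The part of these shifts in the results for the members was not tested.

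Detection reached well into the group. Of the 69 members, 48 had a count in all 4 libraries, 26 had at least 100 counts in sum, 9 of these at least 1000, and 24 had fewer than 10 but not 0. The members miR-3602 and miR-6122-5p had 0 counts throughout, and 3 counts, the upper limit that a count of 0 allows, would be 0.287 to 0.458 CPM before TMM scaling. Members with at least 100 counts made up 37.7% of the group, against 40.3% of the other known bovine miRNAs and 12.9% of the bovine miRNAs named miR-2286 to miR-2904. One member, miR-3064, with 1 count, was seen in steers only, and 6 members with 1 to 3 counts each were seen in bulls only, which is within counting error at this depth.

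The levels were very uneven, as the plot of levels by library shows. miR-3600 alone took 89.1% of all counts of the group, followed by miR-3596 with 7.28%, miR-6119-5p with 1.61% and miR-2957 with 0.813%. The members' share of all counts was 2.51% and 3.53% in the steer libraries and 4.91% and 5.87% in the bull libraries. The groups did not overlap, with a mean of 3.02% ± 0.715 in steers and 5.39% ± 0.677 in bulls (SD, n = 2 each). An exact permutation test (two-sided) gave p = 0.333, the smallest that 2 against 2 libraries allow. Without miR-3600 the share was 0.368% and 0.432% in steers and 0.470% and 0.514% in bulls. A share depends on what else fills a library, and the very abundant miR-143 was counted 2604391 and 1163658 times in steers and 1092668 and 590439 times in bulls. miR-10b, of similar abundance, was counted 2183186 and 1833794 times in steers and 916998 and 673224 times in bulls.

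**Figure D1:**
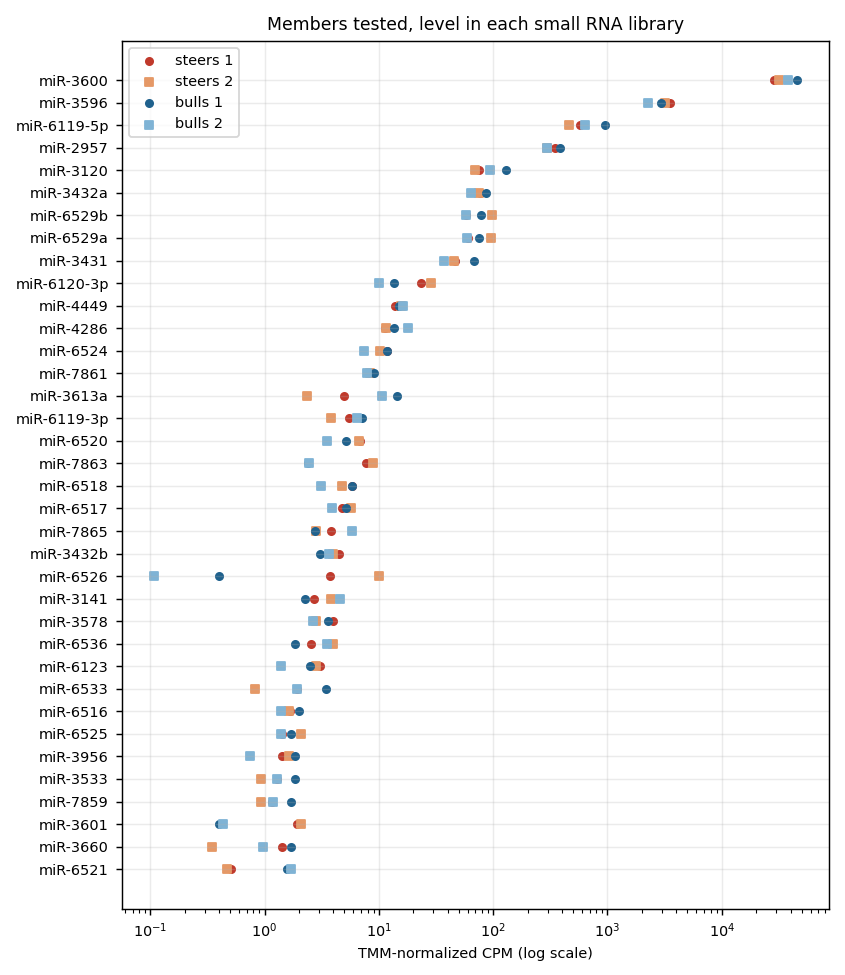
Level of each of the 36 tested members (rows, in order of mean level) in the 4 small RNA libraries, in TMM-normalized CPM on a log axis, with steers in red shades and bulls in blue shades. miR-3600 stands far above all others, and miR-6526 shows the widest gap between steers (3.72 and 10.0 CPM) and bulls (0.397 and 0.107 CPM).

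The most abundant member, miR-3600, is the reverse complement of miR-22-3p, a broadly expressed miRNA known from muscle, heart and fat. miR-3600 was counted 224298 and 274162 times in steers and 345902 and 351265 times in bulls. For miR-22-3p the steer libraries gave 225656 and 274445 counts and the bull libraries 345833 and 350992. The pair thus split almost evenly in every library, with miR-3600 holding between 49.85% and 50.02% of the pair's counts. The exact 95% Clopper-Pearson interval held 50% in 3 of the 4 libraries, and in steers 1 it ran from 49.70% to 49.995%. Such intervals take in counting error alone, because reads from PCR are not separate molecules.

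The same even split was found in miR-3596 and let-7b, a member of the let-7 family of differentiation-associated miRNAs. miR-3596 had 27647, 27086, 22126 and 20916 counts in steers 1, steers 2, bulls 1 and bulls 2, and let-7b had 27520, 27356, 22074 and 20867. let-7a-5p, which mirrors miR-3596 over 16 bases only, had 145826 to 196726 counts, so its level was not repeated in miR-3596. miR-2957 is the mirror of miR-152, a member of the miR-148 family for which DNMT1 is a known target. It had 2723, 2545, 2901 and 2753 counts against 2735, 2588, 2894 and 2692 of miR-152, or 49.6% to 50.6% of the pair. The pair of miR-6529a, with 468, 821, 570 and 550 counts, and miR-6529b, with 449, 830, 592 and 536, split at 49.1% to 51.0%.

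At low counts the split was less sharply defined. miR-3578 had 31, 24, 27 and 25 counts against 29, 35, 28 and 30 of miR-382, and miR-3601 had 15, 18, 3 and 4 against 18, 17, 4 and 3 of miR-542-5p. The interval held 50% in all 4 libraries for both pairs. Another 2 mirrored pairs did not split evenly. miR-3613a had 39, 20, 110 and 99 counts against 2, 0, 2 and 3 of miR-3613b, so it held 95.1% to 100% of the pair. miR-6523a had 10, 17, 9 and 6 counts against 0, 2, 1 and 2 of miR-6523b and held 75.0% to 100%.

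**Figure D2:**
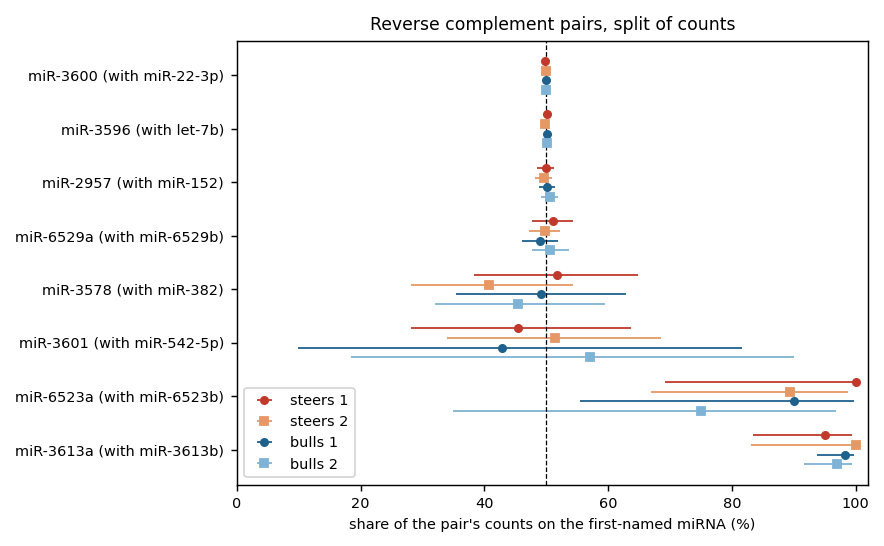
Share of each reverse complement pair's counts on the first-named miRNA, in percent, per library, with exact 95% Clopper-Pearson intervals and a dashed line at 50%. The first 6 pairs lie on the line within their intervals, except miR-3600 in steers 1 by a hair, while miR-6523a and miR-3613a hold 75.0% to 100% of theirs.

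How reads that match more than one entry were assigned is not given in the sources used here, and the strand of the reads was not analysed here. The values of the 7 members in evenly split pairs therefore cannot be told apart from those of their partners. Outside these 7, the remaining 62 members took 0.0685% and 0.0780% of all counts in steers and 0.133% and 0.136% in bulls.

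In the RefSeq annotation of the assembly ARS-UCD2.0, which is not the build the study used and serves here for names and neighbours only, 67 of the 70 hairpins of the members were found. The hairpins of 13 members overlapped another miRNA gene, those of 57 lay in the span of a longer gene, and those of 21 had another miRNA gene within 10 kb. MIR3600 lay on MIR22, MIR3596 on MIRLET7B, MIR3578 on MIR382, MIR3601 on MIR542 and MIR3120 on MIR214. MIR3431 lay in GABRE, a GABA receptor subunit gene, beside MIR224 and MIR452, and MIR6119 lay in RPL39, a ribosomal protein gene. MIR6526 was on unplaced sequence, and its mature sequence is listed for 3 hairpins.

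Castration was compared by edgeR's quasi-likelihood test fitted on all sequences with enough counts, with Benjamini-Hochberg adjustment over all 1073 tested. To be called, a sequence needed an adjusted p below 0.05 together with a log2 fold change beyond 1 in either direction. Fold changes are steers against bulls, so a positive value is higher in steers. Of the 69 members 36 were tested, and the other 33 had at most 42 counts in sum. The 3 members called higher in steers were miR-6526, miR-7863 and miR-3601, against 7.08% of all sequences tested called higher. The 1 member called lower was miR-3613a, against 7.08% of all sequences called lower. In both directions together 11.1% of the tested members were called, near the 14.2% of all sequences and the 12.6% of known bovine miRNAs.

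miR-6526 was counted 29 and 86 times in steers but only 3 times in bulls 1 and 1 time in bulls 2. The steer libraries were both higher, though far from each other, at 6.88 ± 4.47 CPM against 0.252 ± 0.205 in bulls (SD, n = 2 each). The log2 fold change was 4.76 (SE 0.73, adjusted p = 1.6e-08), the largest among the members tested. With so few counts in bulls this fitted value depends on the prior count. The plain ratio of summed CPM was 29.7, with a 95% counting interval of 11.3 to 111. The call held without any one of the 4 libraries, but the log2 fold change moved to 5.36 without steers 1, 3.91 without steers 2, 6.00 without bulls 1 and 4.03 without bulls 2. The call was lost with scaling to total counts (adjusted p = 0.0804), where 1 sequence of all 1073 was called.

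miR-7863 gave 60 and 76 counts for the steer libraries and 18 and 23 for the bull libraries, with close agreement within both groups. This was 8.29 ± 0.831 CPM in steers and 2.42 ± 0.0600 in bulls (SD, n = 2 each). The log2 fold change was 1.77 (SE 0.55, adjusted p = 0.0152). Its adjusted p was 0.0811 without steers 1, 0.215 without steers 2 and 0.0542 without bulls 2.

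miR-3601 gave 15 and 18 counts for the steer libraries and 3 and 4 for the bull libraries, or 2.01 ± 0.125 against 0.413 ± 0.0226 CPM (SD, n = 2 each). The log2 fold change was 2.24 (SE 0.74, adjusted p = 0.0258). Its mirror miR-542-5p, counted 18 and 17 times in steers and 4 and 3 times in bulls, gave 2.32 (SE 0.74, adjusted p = 0.0189), and these are not independent calls given the even split of the pair. The call of miR-3601 was lost without any one of the libraries, with adjusted p from 0.150 to 0.305, and also with DESeq2 (0.101) and limma-voom (0.108). Other miRNAs whose genes lie beside MIR3601 gave log2 fold changes of 1.03 for miR-424-5p (adjusted p = 0.180), 0.04 for miR-450b and -0.71 for miR-450a (adjusted p = 0.365).

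miR-3613a was the member called lower. Its counts were 39 and 20 for the steer libraries and 110 and 99 for the bull libraries, so the groups were well apart, at 3.67 ± 1.89 and 12.6 ± 2.78 CPM (SD, n = 2 each). The log2 fold change was -1.78 (SE 0.54, adjusted p = 0.0147). Without steers 1 the log2 fold change was -2.37 (adjusted p = 0.0755), without steers 2 it was -1.29 (0.585) and without bulls 1 it was -1.34 (0.105), and the call was lost each time. Without bulls 2 it was -2.02 and the call held. Its partner miR-3613b had 7 counts in sum and was not tested.

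**Figure D3:**
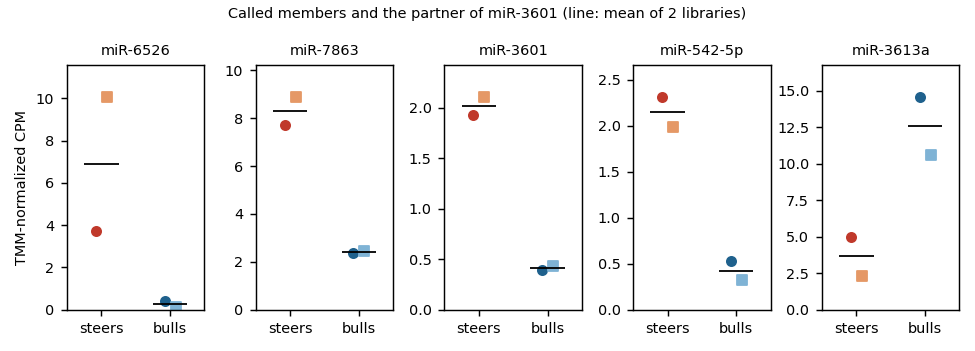
TMM-normalized CPM of the 4 called members, and of miR-542-5p as the partner of miR-3601, in each small RNA library, with steers in red shades, bulls in blue shades and a line at the mean of the 2 libraries; each panel has its own axis from 0. The libraries of the groups do not overlap in any panel, and the steer libraries of miR-6526 lie far apart.

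In all, 6 of the 36 tested members had an unadjusted p under 0.05, beside 293 of all 1073 sequences, and 2 of the 6 were not called. miR-6120-3p had counts of 182 and 244 for steers against 103 and 94 for bulls, and its log2 fold change was 1.13 (SE 0.52, adjusted p = 0.127). It lies in CSNK1G2, a casein kinase gene whose mRNA gave 1153 counts for steers and 801 for bulls. For this mRNA that was 0.40 on the log2 scale (counting interval 0.27 to 0.54), and 0.16 with scaling to total counts. miR-6521, which was singled out after its values were seen, had counts of 4 and 4 for steers against 12 and 16 for bulls, and its log2 fold change was -1.73 (SE 0.74, adjusted p = 0.103). Both were past the threshold when known bovine miRNAs were fitted alone, at adjusted p = 0.0275 and 0.0489. miR-6521 was also past it with a filter of at least 10 counts in every library of a group (0.0363). It passes that filter only through the bull libraries, where it is higher, so this adds no support.

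The abundant members were not called. For miR-3600 the log2 fold change was -0.46 (SE 0.43, adjusted p = 0.504) and for miR-22-3p it was -0.45. miR-6119-5p was counted 4502 and 3967 times in steers and 7174 and 5917 times in bulls, and both bull libraries were higher. Its log2 fold change was -0.61 (SE 0.50, adjusted p = 0.433). miR-3596 gave 0.38 (SE 0.48, adjusted p = 0.631) and miR-2957 gave -0.07 (SE 0.50, adjusted p = 0.948). Each of these values lay within 2 SE of 0, so a difference was not detectable with 2 libraries per group.

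MIR3120 overlaps MIR214 within DNM3, a dynamin gene, beside MIR199A-1, and the mature miR-3120 and miR-214 share no run of 12 bases. Hairpin arms missing from the study's list were not searched, so miR-3120 may have an opposite-strand partner in the overlapping hairpin. For miR-3120 the counts were 585 and 593 for steers against 972 and 875 for bulls, and the log2 fold change was -0.62 (SE 0.46, adjusted p = 0.367). For miR-214 they were 2589 and 2072 against 3154 and 3110, and the log2 fold change was -0.39 (SE 0.50, adjusted p = 0.640). miR-199a-3p had -0.997 (adjusted p = 0.127). All 3 had higher counts in both bull libraries, and none was called. Among all sequences tested, 31.5% had both steer libraries below both bull libraries in CPM. miR-199a-5p overlapped between the groups, with 18134 and 14072 counts for steers against 23076 and 15040 for bulls (log2 fold change -0.23).

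miR-3431 was counted 365 and 386 times in steers and 515 and 347 times in bulls, so its groups overlapped. Its log2 fold change was -0.20 (SE 0.46, adjusted p = 0.811). Its neighbour within GABRE, miR-224, had counts of 313 and 352 for steers against 1376 and 1211 for bulls and was called lower, at -1.94 (SE 0.48, adjusted p = 0.0015), and miR-452 had -0.99 (adjusted p = 0.154). GABRE mRNA had 55 counts in the steer pool and gave -1.53 on the log2 scale for steers against bulls, with a counting interval from -2.01 to -1.07. The difference between miR-3431 and miR-224 in their response was not tested.

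Among the other abundant members, miR-3432a had 595, 647, 649 and 592 counts in steers 1, steers 2, bulls 1 and bulls 2, and miR-3432b had 35, 34, 23 and 34. Their log2 fold changes were 0.03 (SE 0.46) and 0.33 (SE 0.54), both negative with scaling to total counts. miR-4449, which lies in the RNA gene DANCR, had 108, 134, 113 and 153 counts, and its value was -0.09 (SE 0.51). miR-4286 had counts of 88 and 98 for steers against 103 and 169 for bulls, with -0.48 (SE 0.51, adjusted p = 0.563). None of these 4 was called. miR-6529a and miR-6529b, in GSK3B, gave 0.22 and 0.19 (SE 0.46 each), and their highest values both came from steers 2.

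Of the hairpins with both arms in the data, miR-6119 was the only one with more than 10 counts on each arm. miR-6119-3p had counts of 43 and 33 for steers against 54 and 60 for bulls, and its log2 fold change was -0.53 (SE 0.52, adjusted p = 0.526), beside the -0.61 of the 5p arm. For miR-6120 the 5p arm had 1, 2, 0 and 1 counts, so nearly all of its counts were on the 3p arm. miR-6121-5p had 0, 0, 1 and 0 counts and miR-6121-3p 1, 2, 0 and 1, and miR-6122-3p had 1 count in bulls 2. These levels allow no comparison of the groups.

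Members within the large miRNA cluster that also holds miR-382, miR-134, miR-154 and miR-376 were low. On the log2 scale miR-3578 gave 0.12 (SE 0.55) and its mirror miR-382 gave 0.18 (SE 0.54). miR-3956 had 11, 14, 14 and 7 counts and 0.25 (SE 0.66), and miR-3957, with 5, 10, 4 and 15 counts, was not tested. miR-3578 and miR-3956 turned negative with scaling to total counts.

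Over the 36 tested members 18 had a log2 fold change above 0 and 18 below, with a median of 0.00 beside -0.07 for all sequences tested and -0.15 for known bovine miRNAs. The values ran from -1.78 for miR-3613a to 4.76 for miR-6526, and 23 of the 36 lay within 0.5 of 0. In 18 of the 36 members, or 50%, the steer and bull libraries did not overlap, 8 with steers higher and 10 with steers lower. Among all sequences tested 58.2% did not overlap, 26.7% with steers higher and 31.5% with steers lower, so the members' share was not above the background. The 32 members not called included miR-6520 with 0.63 and miR-6123 with 0.60 (adjusted p = 0.436 and 0.528), and 30 of them had an adjusted p over 0.3.

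**Figure D4:**
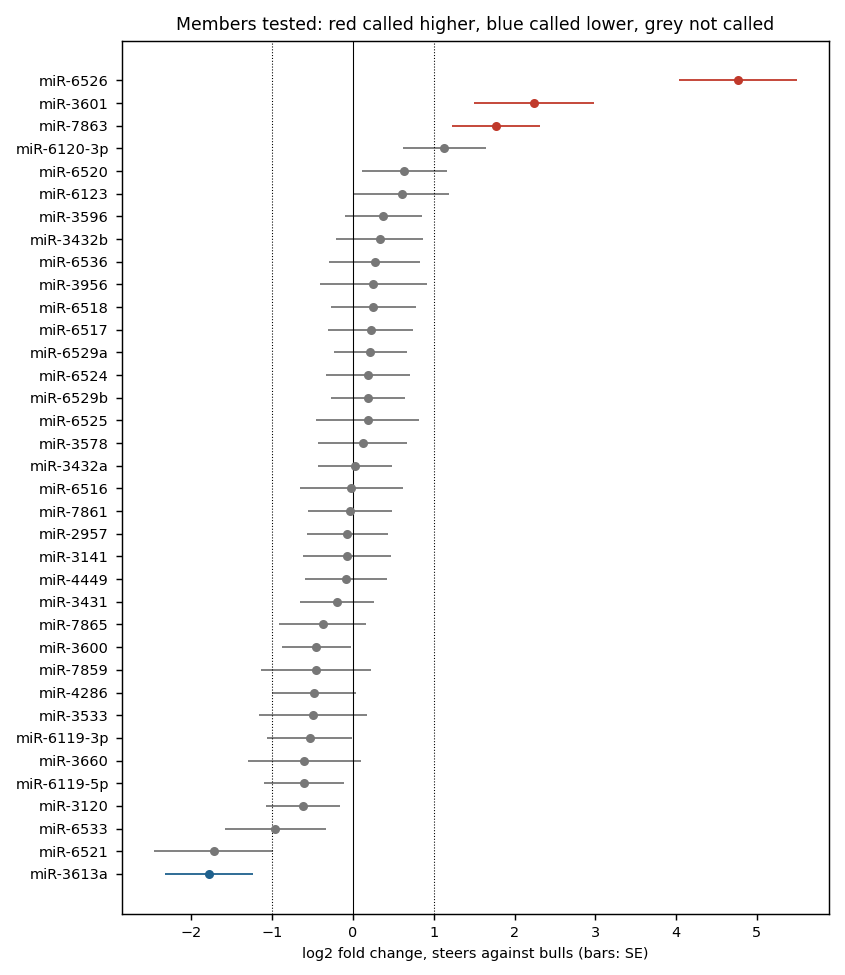
Log2 fold change of steers against bulls for the 36 tested members, sorted, with bars of 1 SE, dotted lines at 1 and -1, and members called higher in red and lower in blue. Only miR-6526, miR-3601, miR-7863 and miR-3613a are called, and 23 of the 36 members lie within 0.5 of 0.

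The genes that make and load miRNAs were read from the mRNA pools, with 1 library per group and therefore no test. All 17 listed genes were in the table and 15 had counts in both pools. None was past a log2 fold change of 1 upward, where 7.13% of all genes were, and 1 was past it downward, where 12.5% of all genes were. All genes means the 15587 with counts in both pools, however few, so these shares are not matched for count level. DROSHA, the nuclear enzyme that cuts the hairpin from the primary transcript, gave 174 counts for steers and 131 for bulls, or 0.29 on the log2 scale with a counting interval from -0.05 to 0.63. DGCR8, its RNA-binding partner, had 988 and 597 counts (0.60, interval 0.46 to 0.75), and XPO5, which exports the hairpin, had 718 and 419 (0.65, interval 0.48 to 0.83).

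DICER1, which cuts the hairpin loop, gave 209 and 175 counts, or 0.13 on the log2 scale with an interval from -0.16 to 0.43. Of the Argonautes, AGO2 had 253 and 218 counts (0.09) and AGO4 had 122 and 187 (-0.74). TNRC6B, a partner of the Argonautes in silencing, was the gene past the fold, with 104 and 220 counts (-1.20, interval -1.55 to -0.86). LIN28A and LIN28B, which block let-7 processing, had 0 counts in both pools. The median of the 15 genes was 0.05, beside 0.00 for all genes.

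Of the 52 genes whose span holds a member's hairpin in RefSeq, 38 were in the mRNA table. TLCD2, which holds MIR3600, had 0 counts in the steer pool and 2 in the bull pool, so no fold change was taken. None of the others was past a log2 fold change of 1 upward, beside 7.13% of all genes, and 2 were past it downward, beside 12.5% of all genes. These were GABRE, given above, and ANKRD6, which holds MIR7862, with 11 and 35 counts (-1.79, interval -2.92 to -0.78). PDCD4, a translation inhibitor gene that holds MIR6524 and MIR4680, had 335 and 463 counts (-0.59), whereas miR-6524 had 91, 88, 90 and 69 counts and 0.19 on the log2 scale (SE 0.52). ACTG1, the gene of cytoplasmic gamma-actin, was the most abundant such gene named here, with 29895 and 20742 counts, and miR-3533 within it had 10, 8, 14 and 12 counts and -0.49 (SE 0.67).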

How the data were processed

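The deposited miRNA values are raw counts per sequence and the deposited mRNA values are raw counts per gene. For miRNA the authors removed adaptors, low-quality reads and reads under 15 bases and aligned the rest with BWA to miRBase release 21 and the bovine genome. The counting of reads that match several entries is not given in the sources used here. The submitters' processing notes also list the human build GRCh37.p13, with no role.

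The steer libraries summed to 10452582 and 8859844 counts and the bull libraries to 7784227 and 6556511. Sequences passing filterByExpr were fitted in edgeR 4.0.16 (R 4.3.3) with TMM factors of 0.746, 0.968, 0.972 and 1.42, glmQLFit and glmQLFTest on group, with SE taken as the absolute log2 fold change over the square root of F. CPM are TMM-normalized. The script was tested on simulated data. The mRNA pools were scaled by median-of-ratios size factors of 1.04 and 0.959, and mRNA intervals are 95% Clopper-Pearson intervals. Python 3.11.15 with scipy 1.17.1, numpy 2.4.6 and pandas 2.3.3 served for the other steps. Alternatives were other scalings and filters, DESeq2 1.42.0, limma-voom (limma 3.58.1), a block for the replicate number, a fit of known bovine miRNAs alone, sums over overlapping miRNAs, and leaving out each library.

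Members named are those called, the 12 with the highest mean CPM, those sharing a run of at least 15 bases with another known bovine miRNA, those with both arms in the data, and the members at the edge of the rule. In addition, miR-3956, miR-3957, miR-3533, miR-6520, miR-6521, miR-6524, miR-6123, miR-3064, miR-7859 and miR-7865 were chosen after their values were seen. The members follow a rule on names alone, but that rule was set with earlier results of these data known. The same holds for all lists (muscle, immune, epithelial, erythroid and stromal miRNAs, adipocyte and miRNA pathway mRNAs). EBSeq, used in the study, and miRNA targets were not used here.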

Additional observations from a re-analysis of the deposited data

How the results depend on the processing

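With 2 libraries per group and a common coefficient of biological variation of 0.339, small changes could not be seen, and low counts limit miR-6526 and miR-3601 most. Higher calls numbered 3 and lower calls 1. With total counts as scaling they were 0 and 0. There 8 of the 36 members had an unadjusted p under 0.05, beside 298 of all 1073 sequences, and the median over all sequences moved from -0.07 to -0.56. With upper-quartile factors that median was 0.11. With no filter the calls were 1 and 0, and lower calls were 2 with at least 10 counts in every library of a group, with known bovine miRNAs only and with sums over overlapping miRNAs, where miR-3613a and miR-3613b carry the same sum and are 1 call counted under both names. Over the libraries left out in turn, where the lone library is assumed to vary like the other group, higher calls ranged from 1 to 2 and lower calls from 0 to 1. The members' median log2 fold change of 0.00 was 0.18 with upper-quartile factors and -0.44 with total counts, and -0.13 to 0.40 with a library left out. The biogenesis genes past the fold downward were 2 with total counts. The share of counts kept its direction in every alternative, from -2.88 to -1.87 percentage points with a library left out. The members in overlapping pairs were 16 at 12 bases and 13 at 18 bases.

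The same replicate numbers occur in both groups, and the labels do not say whether they pair a steer and a bull library. The deviations within the groups had a correlation of 0.314 across sequences. With the replicate block 4 members were called higher and 1 lower, the added one being miR-6120-3p (adjusted p = 0.0315), and 252 of all sequences were called instead of 152.

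Of 350 alternative values for 25 named members 297 kept direction and call, which for an uncalled member means staying uncalled. In 19 the call of a called member was lost, over 14 alternatives for each such member. In 4 an uncalled member gained a call. The 30 values that changed sign all belonged to uncalled members. With total counts these were -0.42 for miR-3432a, -0.18 for miR-3432b, -0.36 for miR-3578, -0.081 for miR-3596, -0.14 for miR-3956, -0.25 for miR-6524, -0.19 for miR-6529a and -0.21 for miR-6529b. miR-3432a was -0.081 with no filter. miR-2957 was 0.0097 with DESeq2 size factors, 0.0098 with DESeq2, 0.11 with upper-quartile factors and 0.060 with known miRNAs only, and miR-4449 was 0.00080, 0.00085, 0.096 and 0.017. With a library left out the range was -0.28 to 0.32 for miR-2957, -0.60 to 0.49 for miR-3431, -0.21 to 0.45 for miR-3432a, -0.11 to 0.52 for miR-3578, -0.31 to 1.19 for miR-3956, -0.13 to 0.052 for miR-4449, -0.15 to 0.76 for miR-6524, -0.13 to 0.59 for miR-6529a and -0.20 to 0.61 for miR-6529b. The cause was not tested.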
